A study of Mus musculus with 7 samples.

Results

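The subject here is the set of nuclear genes that encode the protein subunits of oxidative phosphorylation, read in liver endothelial cells of control mice and of mice with a knockout of Maf, which encodes the transcription factor c-Maf. Members were rows of the count table whose symbol marks a subunit of complex I (Nduf), II (Sdh), III (Uqcr), IV (Cox4 to Cox8) or V (Atp5), together with Cycs. Symbols with a pseudogene ending were left out, and a member needed at least 50 counts summed over all libraries. The pattern matched 97 of 52636 rows, 8 were dropped as pseudogene names and 10 for their counts, and 79 members remained: 36 of complex I, 4 of complex II, 8 of complex III, 13 of complex IV, 17 of complex V and Cycs. No expression difference was used to choose them, and all 79 passed the filter on low counts. Just inside the minimum lay Cox7a1 with 89 counts and Cox6b2 with 373. Just outside lay Ndufa4l2 with 22, Cox6c2 with 21, Ndufs6b with 19 and Cox4i2 with 9. Of the rows dropped by name, only Ndufb1-ps held more than a few reads (4232 counts).

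Polyadenylated RNA was sequenced from endothelial cells sorted by flow cytometry from mouse liver, in 3 control and 4 Maf knockout (KO) libraries. The labels give the genotypes only as Control and as knockout. Age, strain, the way Maf was removed, the part of the gene removed and the cells in which it was removed are not stated in the labels. The labels do not tie libraries to separate animals, so p-values here cover the spread between libraries only, and that spread may be technical. In bulk RNA of this kind, fewer cells of a type and less RNA per cell cannot be told apart.

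Oxidative phosphorylation takes place in the inner mitochondrial membrane. Complexes I and II pass electrons from NADH and succinate to ubiquinone, complex III passes them on to cytochrome c, and complex IV hands them to oxygen. Complexes I, III and IV pump protons out of the matrix as they work, and complex V, the ATP synthase, makes ATP as protons flow back. Most subunits are encoded in the nucleus, and a few, at the catalytic centres and proton paths, by mitochondrial DNA. Endothelial cells take much of their ATP from glycolysis and are known for a modest mitochondrial content, while the endothelium of the liver sinusoids is specialised for endocytosis.

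The library facts were as follows. Totals ran from 24772716 to 32960007 counts. CPM here is a gene's count scaled to a common library total after correction by TMM (trimmed mean of M-values), with factors of 0.877 to 0.921 for controls against 1.04 to 1.14 for KO libraries. On this scale Maf had 1664, 2088 and 2147 CPM in the 3 controls, against 28.9, 158.9, 124.5 and 37.7 CPM in KO 1 to 4. Control 3 and KO 3 carry lane number 4 in the labels and the other 5 libraries lane 5. The summed level of 10 markers of sinusoidal endothelium was 35990 to 39890 CPM in controls and 7632 to 12520 CPM in KO libraries. The summed level of 10 hepatocyte markers was 272 to 307 CPM in controls and 1350, 341, 424 and 662 CPM in KO 1 to 4. That of 8 erythroid genes was 2.63 to 10.2 and then 40.1, 7.62, 5.94 and 21.8 CPM, and that of 13 dissociation stress genes 8038 to 10410 and then 23950, 18880, 11660 and 14220 CPM. Markers of Kupffer cells summed to 85.1 to 295 CPM in controls and 54.5 to 162 CPM in KO libraries, and 1 of 9 fell. Those of stellate cells summed to 17.9 to 167 CPM and then 8.68 to 48.5 CPM, and 5 of 9 fell. Over all libraries markers of cholangiocytes (1.46 to 13.8 CPM), B cells (1.40 to 6.71 CPM), neutrophils (1.505 to 6.49 CPM) and T and NK cells (at most 0.570 CPM) were low. The summed level of 6 platelet and megakaryocyte markers was 23.7 to 27.4 CPM in controls and 34.5 to 46.9 CPM in KO libraries, and 4 of the 6 rose and 1 fell. That of 8 pan-endothelial markers was 12460 to 13760 CPM and then 8123 to 10890 CPM, and 4 of the 8 fell and 1 rose. Of the sinusoidal markers 8 of 10 fell, and of the hepatocyte markers 6 of 10 rose. Of the stress genes 5 of 13 rose, and of the 5 erythroid genes tested 0 rose or fell. Among all genes tested 23% rose and 22.2% fell. KO 1 and KO 4 were the libraries highest in both hepatocyte and erythroid transcripts. Their part in the subunit values was not tested, and counts of calls are also given without both libraries.

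The 3 upstream stretches here are shown because they belong to the member with the largest fold change, the most abundant member per length and the most changed subunit of the ATP synthase. RefSeq gives 250 bases upstream of the start for 65 of the 79 members, on GRCm38.p6. They were searched on both strands for the core of the NRF1 site (GCGCATGCG), the ETS core bound by GABP (CCGGAAG), a YY1 site (AAGATGGCG) and the core of the site of large Maf proteins (TGCTGAC). An NRF1 core that matches on both strands makes an overlapping pair, counted once. Capitals mark a match, all 3 genes lie on the minus strand, and each stretch is written 5′ to 3′ along the gene and ends where the annotated first exon begins. The stretch of Cox6b2 is chr7:4753095-4753225, cut where an exon of the neighbouring gene Fam71e2 begins. That of Cox6a1 is chr5:115348982-115349208 and holds an NRF1 core. That of Atp5e is chr2:174464106-174464351 and holds the ETS core on the opposite strand.
Cox6b2: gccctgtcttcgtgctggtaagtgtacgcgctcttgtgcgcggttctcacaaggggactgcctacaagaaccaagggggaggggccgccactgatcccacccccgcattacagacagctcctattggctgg
Cox6a1: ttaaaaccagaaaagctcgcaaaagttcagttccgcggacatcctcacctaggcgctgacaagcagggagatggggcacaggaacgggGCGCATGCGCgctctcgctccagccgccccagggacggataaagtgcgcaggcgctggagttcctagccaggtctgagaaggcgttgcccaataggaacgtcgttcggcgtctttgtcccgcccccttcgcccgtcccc
Atp5e: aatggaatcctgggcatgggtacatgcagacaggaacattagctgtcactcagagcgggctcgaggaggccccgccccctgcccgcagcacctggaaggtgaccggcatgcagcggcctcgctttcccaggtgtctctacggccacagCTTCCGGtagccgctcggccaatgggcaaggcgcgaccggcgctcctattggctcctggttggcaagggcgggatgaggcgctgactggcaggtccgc

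The NRF1 core was found upstream of 7 of 65 members (10.8%), namely Ndufa8, Ndufa11, Cycs, Cox6a1, Atp5g2, Atp5k and Atp5l, against 3.32% of 10787 tested genes with an entry. The ETS core was found in 12 of 65 (18.5%, against 15.1%) and the YY1 site in 1 of 65 (1.54%, Atp5j, against 1.37%). The Maf core was found in 0 of 65 members and in 3.81% of tested genes. Of the 7 members with an NRF1 core 3 rose in KO libraries, and of the 12 with an ETS core 3 rose. Of the 58 members with an entry but no NRF1 core 13 rose, and of the 53 without the ETS core 13 rose, beside 23% of all genes tested. A match is a run of letters, and its absence says only that these letters are not in this window.

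Most subunits changed little. Among 79 members 17 rose in KO libraries (21.5%) and 2 fell (2.53%) at an adjusted p under 0.05 in edgeR's quasi-likelihood test with Benjamini-Hochberg adjustment, and 60 did not pass. Of 15512 genes tested, 23% were called higher and 22.2% lower, 45.2% in all. In this fit the share of members that rose was thus close to that of all genes, and the share that fell was smaller. Under library totals or upper-quartile factors the share that rose was above that of all genes. In lane 5 alone it was below that of all genes. The median log2 fold change was 0.16 (quartiles 0.02 and 0.29), beside 0.04 for all genes tested. For 63 members (79.7%) the group means differed by less than 1.3-fold, beside 47.1% of all genes, and 1 member, Cox6b2, differed by more than 2-fold. KO and control libraries did not overlap in 17 members (13 higher, 4 lower in KO), which is 21.5%, beside 50.3% of all genes (25.6% higher, 24.7% lower).

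The counts moved with the scaling. Scaled by library totals alone, 57 members rose and 0 fell, and the median was 0.43, while 41.1% of all genes were called higher, 12.7% lower, and their median was 0.31. With upper-quartile factors 33 members rose and 1 fell, with a median of 0.29, beside 30.6% and 17.7% of all genes. In lane 5 alone 9 rose and 5 fell, beside 19.4% and 24.2% of all genes. Leaving out 1 library gave 5 rises without control 2, 4 without control 3, 8 without KO 2 and 7 without KO 4, and leaving out KO 1 and KO 4 together gave 7 rises and 1 fall, beside 14.5% and 15.7% of all genes. Of all genes 18.3, 14.9 and 17.6% were called higher without controls 1 to 3 and 20, 20.3, 24.7 and 18% without KO 1 to 4. The shares called lower were 19.4, 16.2 and 18.3% and then 20.4, 20.2, 25.8 and 18.8%. Of the 19 members called, 4 were called in every one of the 20 alternatives: Cox6b2, Cox7b, Atp5e and Atp5g1.

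**Figure D1:**
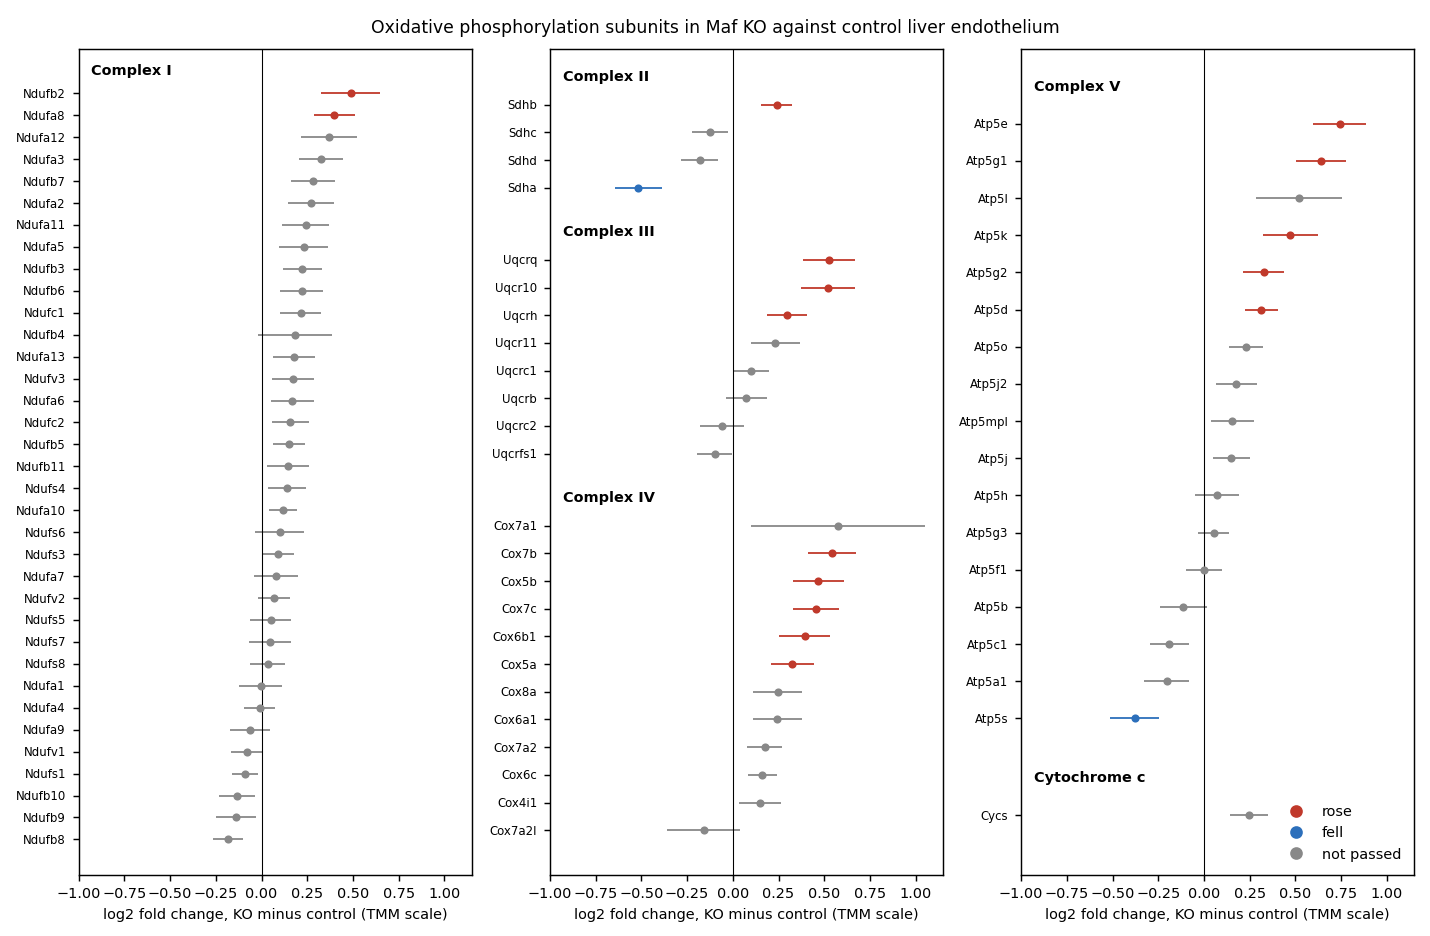
Log2 fold change of each member, KO minus control, with its standard error (horizontal line), grouped by complex and ordered by value; red points rose, blue points fell and grey points did not pass the test. Cox6b2, at 3.59, lies beyond the axis and is not drawn, 1 member of complex I is not shown, and the 2 blue points are Sdha and Atp5s.

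The complexes differed in how many of their members were called. Of all genes tested 23% rose and 22.2% fell. In complex I 2 of 36 rose (5.56%) and 0 fell, with a median log2 fold change of 0.14. In complexes I, III and IV 0 members fell in edgeR, DESeq2 or limma-voom over all libraries, also at an unadjusted p under 0.05. In lane 5 alone 1 member of complex I, Ndufb9, was called lower (−0.31, adjusted p = 0.0496). Complex II had 1 rise and 1 fall among 4, with a median of −0.15, which became 0.11 under library totals. Complex III had 3 rises of 8 (37.5%, median 0.17) and complex IV 6 of 13 (46.2%, median 0.33). Complex V had 5 rises (29.4%) and 1 fall (5.88%) among 17 (median 0.16). No test was made between the complexes. For each library the median of its members, each as a percentage of its own control mean, was taken as the level of a complex. For complex IV it was 109, 102 and 88.8% in controls 1 to 3 and 115, 125, 110 and 131% in KO 1 to 4. For complex I it was 110.0, 99.0 and 90.2%, then 100.5, 114, 101 and 120%, and KO 1 and KO 3 lay within the control range. For complex II it was 103, 99.9 and 96.5%, then 76.8, 94.4, 98.8 and 90.1%, and KO 3 lay within the control range. Control 1 was the highest and control 3 the lowest control in all 5 complexes. Summed over all members the level was 5078 ± 388 CPM in controls (SD, n = 3) and 5350 ± 358 CPM in KO libraries (SD, n = 4), a difference smaller than the spread. As a share of all counts, members took 0.431 to 0.493% of each control and 0.535 to 0.628% of each KO library.

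**Figure D2:**
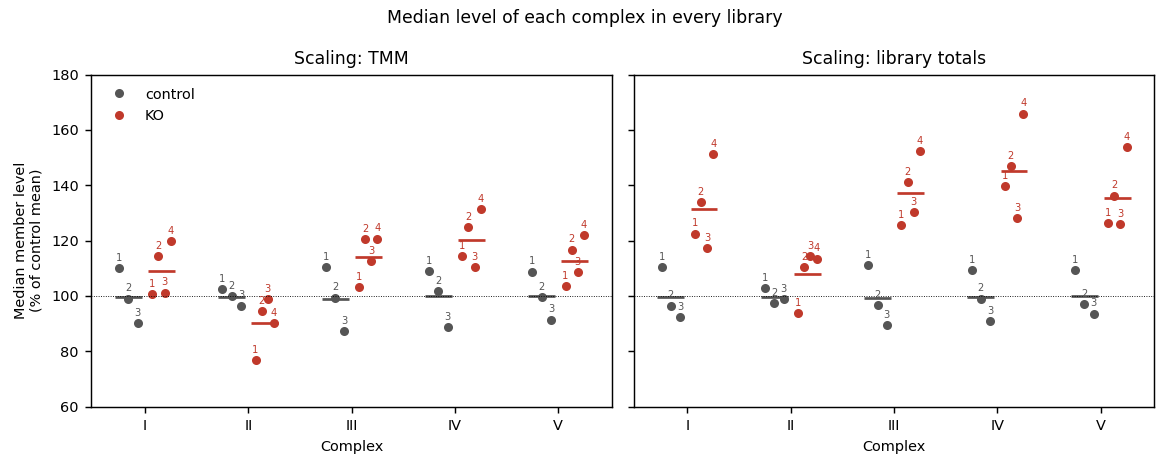
Median level of the members of each complex in every library, as a percentage of the control mean, under TMM scaling (left) and under library totals (right); numbers are replicate numbers and bars are group means. Under TMM the controls of complex IV lie at 88.8 to 109% and its KO libraries at 110 to 131%, and under library totals the KO libraries of complexes I, III, IV and V lie above all controls.

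Complex I, the NADH dehydrogenase, has a conserved catalytic core and a shell of accessory subunits. Of the 7 nuclear core members, which carry the flavin and the iron-sulphur clusters, 0 were called by edgeR, by DESeq2 or by limma-voom and 0 had an unadjusted p under 0.05, and their log2 fold changes lay between −0.09 (Ndufs1) and 0.09 (Ndufs3). Under library totals 4 of the 7 were called higher. Ndufs1, the largest iron-sulphur subunit, had 54.1, 54.2 and 53.4 CPM in controls 1 to 3 and 49.1, 53.8, 49.1 and 50.8 CPM in KO 1 to 4. KO 2 lay within the control range and the other 3 below it, and the test was not passed (adjusted p = 0.33).

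Of the 29 accessory members of complex I 2 rose and 0 fell, with a median of 0.17. Ndufa8, a cysteine-rich protein on the intermembrane space side (chr2:36036326-36049406), stood at 98.0, 78.5 and 76.1 CPM in controls and 99.2, 116.7, 110.1 and 118.1 CPM in KO libraries. Control 1 came close to KO 1 and the groups did not overlap (log2 fold change 0.40, SE 0.11, adjusted p = 0.0175). The call was lost in 6 of 20 alternatives. Ndufb2, a small membrane-arm subunit (chr6:39592574-39603382), stood at 6.34, 5.91 and 5.79 CPM in controls and 10.1, 7.59, 6.98 and 9.09 CPM in KO libraries. Every KO library lay above every control (0.49, SE 0.16, adjusted p = 0.0347), and the call was lost in 8 alternatives. Ndufb8 was the only complex I member lower in every KO library (35.9 to 39.0 CPM in controls, 30.6 to 35.8 CPM in KO libraries), and it did not pass (−0.18, adjusted p = 0.102).

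Ndufa4, which carries a complex I name but was later assigned to complex IV, was the most abundant of the Nduf members per length, at 163 CPM per kb in controls and 162 in KO libraries. It stood at 78.4, 79.3 and 66.8 CPM in controls and 72.9, 73.8, 72.9 and 77.5 CPM in KO libraries, all of the latter within the control range (−0.01, SE 0.08, adjusted p = 0.927). Under library totals its value was 0.26, with a call (adjusted p = 0.0287). Its hypoxia-linked paralog Ndufa4l2 had 22 counts in all and was not tested. Ndufb1-ps, a row with 4232 counts whose name ends like a pseudogene but which GENCODE types as a bidirectional promoter lncRNA, rose from 17.65 to 22.9 CPM (0.38, SE 0.13, adjusted p = 0.0437).

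Complex II, succinate dehydrogenase, is the one complex made wholly of nuclear-encoded subunits and also an enzyme of the citric acid cycle. Its catalytic flavoprotein Sdha (chr13:74322254-74350280) stood at 243, 244 and 235 CPM in controls 1 to 3 and at 145, 175, 204 and 150 CPM in KO 1 to 4. The lowest values were in KO 1 and KO 4, the libraries with the most hepatocyte transcripts, and all 4 KO libraries lay below all controls. Sdha fell by 0.52 on the log2 scale (SE 0.13, adjusted p = 0.00981). It fell by 0.34 without KO 1 and KO 4 and by 0.68 in lane 5 alone, still called in both. Under library totals it fell by 0.26 and was no longer called (adjusted p = 0.0706).

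The iron-sulphur subunit Sdhb (chr4:140961203-140979193) moved the other way. It stood at 59.5, 55.1 and 53.3 CPM in controls and 61.6, 70.0, 62.5 and 70.3 CPM in KO libraries, which did not overlap (0.24, SE 0.08, adjusted p = 0.0437). This call was the least steady of the complex and was lost in 13 of 20 alternatives. The membrane anchors did not pass: Sdhc stood at 90.3, 90.7 and 82.3 CPM and then at 68.7, 81.3, 88.0 and 84.5 CPM (−0.12, SE 0.10, adjusted p = 0.332), with overlap. Sdhd stood at 52.0, 49.7 and 51.0 CPM and then at 38.4, 49.0, 49.6 and 42.7 CPM, just without overlap (−0.18, SE 0.10, adjusted p = 0.172).

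A ratio of 2 genes' counts within a library does not depend on library scaling. It is not free of the relation to transcript length described below. Several ratios here join a longer and a shorter transcript, such as Sdha (2900 bp) and Sdhb (1142 bp), or Atp5e (421 bp) and Atp5b (1916 bp). The part of length in the ratios was not tested. Sdha over Sdhb was 4.09, 4.43 and 4.42 in controls 1 to 3 and 2.35, 2.50, 3.27 and 2.13 in KO 1 to 4. The KO value closest to the controls was KO 3, and within lane 4 the ratio was 4.42 in control 3 and 3.27 in KO 3. Sdhd over Sdhb was 0.873, 0.903 and 0.957 in controls and 0.623, 0.699, 0.794 and 0.607 in KO libraries, also without overlap. Sdhc over Sdhb was 1.52, 1.65 and 1.55, then 1.11, 1.16, 1.41 and 1.202. In a two-sided exact permutation test each of these ratios gave p = 0.0571, the smallest value that 3 against 4 libraries can give. Adjusted over the 14 ratios computed it was 0.08. The 14 ratios were chosen after the fold changes were seen, so their separation and p-values are description only, not independent evidence.

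**Figure D3:**
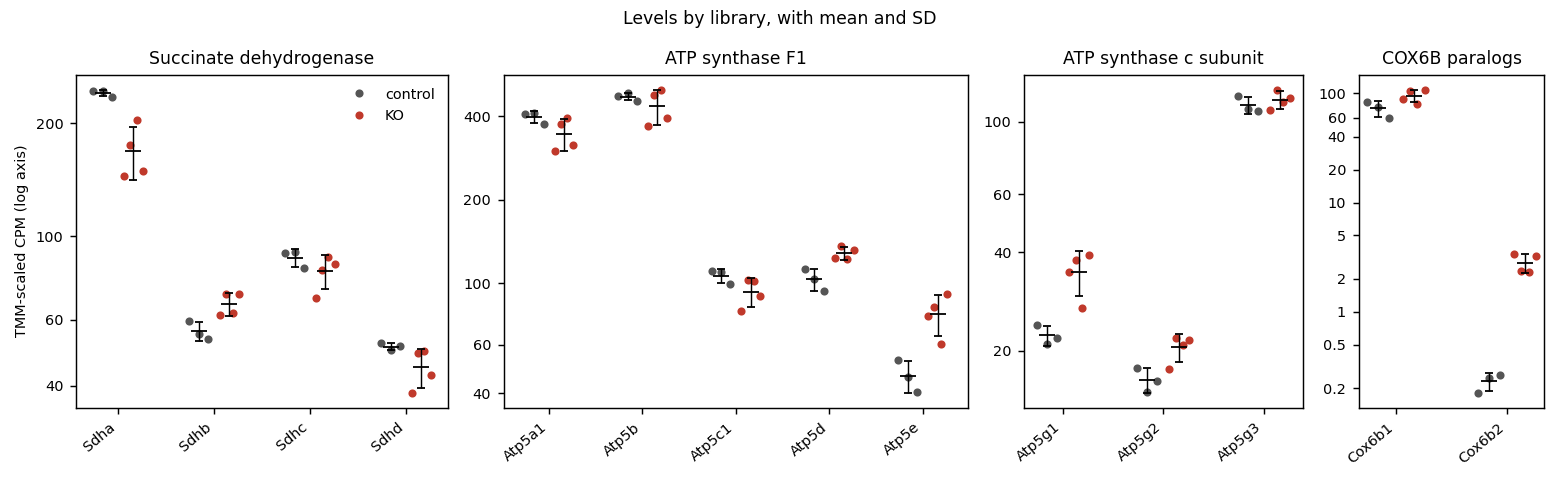
TMM-scaled CPM of the subunits of succinate dehydrogenase, of the ATP synthase F1 part, of the 3 genes for the ATP synthase c subunit and of the 2 COX6B paralogs, on log axes; points are libraries, with the mean and SD of 3 control (grey) and 4 KO (red) libraries. Sdha lies at 235 to 244 CPM in controls and 145 to 204 CPM in KO libraries, and Cox6b2 at 0.182 to 0.263 and 2.33 to 3.36 CPM.

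Complex III, the cytochrome bc1 complex, had its rises among the small accessory subunits. Uqcrq (chr11:53427922-53430831), the ubiquinone-binding protein QP-C, stood at 54.03, 47.3 and 41.2 CPM in controls and 67.6, 75.2, 53.5 and 77.0 CPM in KO libraries. KO 3 lay within the control range and the other 3 above it (0.52, SE 0.14, adjusted p = 0.0154). Uqcr10 (chr11:4701973-4704342), a small transmembrane subunit, stood at 33.4, 32.1 and 25.1 CPM and then at 40.3, 47.6, 34.95 and 50.3 CPM, without overlap (0.52, SE 0.15, adjusted p = 0.0195). Both calls were lost in 3 of 20 alternatives.

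Uqcrh, the acidic hinge protein and the most abundant member of complex III per length (111 CPM per kb in controls, 136 in KO libraries), stood at 61.2, 51.5 and 45.3 CPM and then at 60.9, 69.4, 64.6 and 63.9 CPM. KO 1 lay just below control 1 (0.30, SE 0.11, adjusted p = 0.0488), and the call was lost in 13 alternatives. The large core proteins and the Rieske protein did not pass, with log2 fold changes of 0.10 for Uqcrc1, −0.06 for Uqcrc2 and −0.10 for Uqcrfs1. Uqcrq over Uqcrc2 was 0.680, 0.615 and 0.541 in controls and 1.12, 0.935, 0.613 and 1.11 in KO libraries. KO 3, at 0.613, lay inside the control range, and in lane 4 the ratio was 0.541 in control 3 (exact permutation p = 0.171 over all libraries, 0.2 adjusted over the 14 ratios). Uqcr10 over Uqcrfs1 was 0.733, 0.737 and 0.595 and then 1.10, 1.08, 0.782 and 1.32, without overlap (p = 0.0571 by the exact permutation test, 0.08 adjusted).

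Complex IV, cytochrome c oxidase, had the highest share of rises, 6 of 13 (46.2%). Of all genes tested 23% rose, and of those under 700 bp 25.8%. The members of complex IV had a median length of 606 bp, beside 2432 bp for all genes tested. Without control 2, and likewise without control 3, the complex had 2 rises. Its catalytic centre is encoded by mitochondrial DNA, and the nuclear members surround and regulate it. Cox6b2 (chr7:4751792-4753094), the paralog of Cox6b1 known from testis, stood at 0.182, 0.250 and 0.263 CPM in controls and at 3.36, 2.34, 2.33 and 3.22 CPM in KO libraries. Every KO library exceeded every control, and the mean went from 0.232 ± 0.0435 CPM (SD, n = 3) to 2.81 ± 0.553 CPM (SD, n = 4), or 12.1-fold (log2 fold change 3.59, SE 0.30, adjusted p = 3.85e-05). Between settings it ranged from 3.32, without KO 1 and KO 4, to 3.86, under library totals. The controls held 5, 6 and 6 reads of it, above the level of 3 counts, which is 0.109 to 0.132 CPM there.

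Cox6b2 is a small part of its pair. Per length it made up 0.244, 0.370 and 0.490% of the reads of Cox6b1 and Cox6b2 in controls and 4.03, 2.43, 3.12 and 3.26% in KO libraries. No other annotated gene overlaps its exons, and none of its 50-base stretches occurs in another annotated transcript. Fam71e2, 131 bases upstream on the same strand, had 0 counts in all libraries. Kmt5c, which ends 4277 bases away on the other strand, stood at 60.4 to 69.9 CPM in controls and 97.1 to 148 CPM in KO libraries and rose (0.90, adjusted p = 0.00109). Whether reads from it reach Cox6b2 was not tested.

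The main paralog Cox6b1, which bridges the monomers of the complex IV dimer, stood at 83.2, 75.2 and 59.7 CPM in controls and 89.5, 105.2, 80.7 and 106.6 CPM in KO libraries. KO 3 lay below control 1 (0.39, SE 0.14, adjusted p = 0.0444), and the call was lost in 10 alternatives. Cox7b, needed for assembly of the complex (chrX:106015700-106022450), stood at 35.4, 36.4 and 28.8 CPM and then at 47.6, 49.9, 40.5 and 57.3 CPM. It rose without overlap (0.54, SE 0.13, adjusted p = 0.00956) and was called in every alternative. Cox5b, a zinc-binding subunit on the matrix side, stood at 77.0, 62.1 and 59.1 CPM and then at 91.7, 100.3, 72.5 and 101.1 CPM. KO 3 lay below control 1 (0.47, SE 0.14, adjusted p = 0.0226), and the call was lost in 5 alternatives. Cox7c (0.45, adjusted p = 0.0172) and Cox5a (0.33, adjusted p = 0.0463, with overlap) also rose. Cox7c was called in 17 of 20 alternatives and Cox5a in 7.

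The other paralog sets of complex IV kept their main isoform. Cox4i1 stood at 150, 135 and 114 CPM in controls and 130.1, 157, 144 and 158 CPM in KO libraries, with overlap (0.15, SE 0.12, adjusted p = 0.315), and Cox4i2, the isoform linked to hypoxia, had 9 counts in all. Cox6a1 was the most abundant member of all per length, at 338 CPM per kb in controls and 400.1 in KO libraries. It stood at 231, 188 and 159.8 CPM and then at 210.2, 241, 213 and 249.9 CPM (0.24, SE 0.14, adjusted p = 0.168). Its muscle paralog Cox6a2 had 1 count. Cox8a stood at 131, 115 and 92.2 CPM and then at 129, 140.2, 117 and 148 CPM, with overlap (0.25, SE 0.13, adjusted p = 0.158), and Cox8b and Cox8c had 2 and 0 counts.

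In the COX7A set the muscle form Cox7a1 stood at 0.255, 0.4996 and 0.263 CPM in controls and 0.601, 0.423, 0.233 and 0.767 CPM in KO libraries, from 6 to 26 counts a library (0.57, SE 0.48, adjusted p = 0.348). Cox7a2 stood at 50.9, 48.3 and 44.6 CPM and then at 50.3, 57.95, 48.7 and 59.4 CPM (0.17, SE 0.10, adjusted p = 0.171). Both overlapped between the groups. Cox7a2l, a factor that joins complexes III and IV into supercomplexes, split the KO libraries. It stood at 80.7, 92.9 and 80.6 CPM in controls and at 53.1, 90.9, 97.6 and 61.7 CPM in KO 1 to 4 (−0.16, SE 0.20, adjusted p = 0.54). KO 1 and KO 4 lay below all controls, and these are the libraries highest in hepatocyte and erythroid markers. Without them the log2 fold change was 0.16.

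Complex V, the ATP synthase, consists of a catalytic head, a central and a peripheral stalk and a rotating ring of c subunits. The catalytic head was not called in the main test. Atp5b, the beta subunit and the most abundant member of the complex per length (246 CPM per kb in controls, 227 in KO libraries), stood at 475, 484 and 455 CPM in controls and at 370.1, 478, 499 and 395 CPM in KO libraries. KO 1 and KO 4 were below all controls and KO 2 and KO 3 were not (−0.11, SE 0.13, adjusted p = 0.492). Atp5a1, the alpha subunit, was also lowest in KO 1 and KO 4, at 409, 412 and 377 CPM and then 301, 377, 394 and 315 CPM (−0.20, SE 0.12, adjusted p = 0.199). The part of the hepatocyte and erythroid transcripts of KO 1 and KO 4 in this pattern was not tested. In lane 5 alone Atp5a1 was called lower (−0.36, adjusted p = 0.0463). All 4 peripheral stalk members (Atp5f1, Atp5h, Atp5j and Atp5o) had log2 fold changes of at most 0.23 and did not pass. Under library totals all 4 were called higher.

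In the central stalk 2 of 3 members rose. Atp5e, the epsilon subunit at the foot of the stalk (chr2:174461072-174464105, the gene of the ETS-bearing upstream stretch), stood at 52.7, 45.8 and 40.6 CPM in controls and 75.9, 82.2, 60.5 and 91.3 CPM in KO libraries. All KO libraries lay above all controls, with KO 3 the lowest of them. The mean went from 46.3 ± 6.06 CPM (SD, n = 3) to 77.5 ± 12.99 CPM (SD, n = 4), a log2 fold change of 0.74 (SE 0.15, adjusted p = 0.00336). Atp5d, the delta subunit beside it, rose from 103 ± 9.23 CPM (SD, n = 3) to 128 ± 6.65 CPM (SD, n = 4), or 0.31 on the log2 scale (SE 0.09, adjusted p = 0.0199). Atp5c1, the gamma subunit that forms the shaft, had a log2 fold change of −0.19 and did not pass (adjusted p = 0.168). In lane 5 alone it was called lower (−0.33, adjusted p = 0.0494).

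Within a library, Atp5e over Atp5b was 0.111, 0.0946 and 0.0891 in controls and 0.205, 0.172, 0.121 and 0.231 in KO libraries. Every KO value exceeded every control value, and in lane 4 the ratio was 0.0891 in control 3 and 0.121 in KO 3. Atp5d over Atp5b was 0.237, 0.214 and 0.206 and then 0.333, 0.284, 0.244 and 0.334, also without overlap. Both gave p = 0.0571 by the exact permutation test (0.08 adjusted over the 14 ratios). Of the 14 ratios, chosen after the fold changes were seen, 10 did not overlap between the groups. Of all single genes tested 50.3% did not overlap, and the share among other ratios was not computed.

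**Figure D4:**
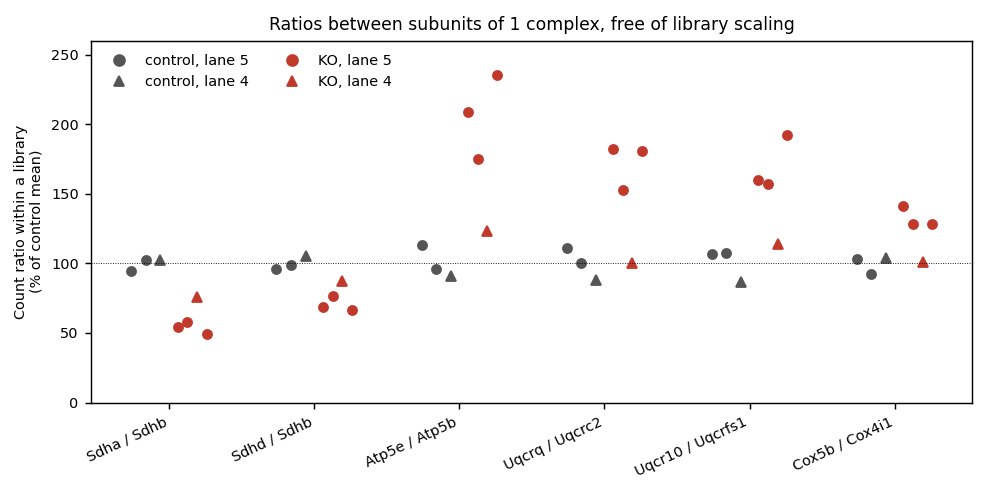
Ratios of the counts of 2 subunits of the same complex within each library, as a percentage of the control mean; circles are lane 5 libraries and triangles lane 4 libraries, grey for control and red for KO. The ratios of Sdha and Sdhd to Sdhb lie lower in all 4 KO libraries, and that of Atp5e to Atp5b lies higher in all 4; KO 3, the red triangle, is the KO library closest to the controls in all 6 ratios.

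The c ring is built from 1 mature protein encoded by 3 genes that differ in their targeting peptides. Atp5g1 (chr11:96068852-96075670) stood at 24.1, 20.98 and 21.9 CPM in controls and 34.8, 38.0, 27.1 and 39.3 CPM in KO libraries. It rose without overlap (0.64, SE 0.13, adjusted p = 0.00455) and was called in every alternative. Atp5g2 stood at 17.8, 15.0 and 16.2 CPM and then at 17.6, 21.9, 20.9 and 21.6 CPM, with KO 1 inside the control range (0.33, SE 0.11, adjusted p = 0.0394; lost in 11 alternatives). Atp5g3, the main gene, stood at 120.0, 109 and 107.6 CPM and then at 108, 125, 115 and 118 CPM and did not pass (0.05, SE 0.08, adjusted p = 0.634).

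By reads per length, Atp5g1 supplied 4.36, 4.23 and 4.42% of the c subunit transcripts in controls and 6.72, 6.29, 4.94 and 6.80% in KO libraries. The size of these shares rests on median annotated lengths of 2675.5 bp for Atp5g1, 586 bp for Atp5g2 and 718.5 bp for Atp5g3. Which transcripts were present was not tested. By counts Atp5g1 exceeded Atp5g2 in every library, with 661 against 489 in control 1 and 984 against 498 in KO 1. Atp5g3 supplied 80.9, 82.0 and 80.7% and then 77.8, 77.2, 77.7 and 76.2%, and Atp5g2 13.8 to 14.9% and then 15.5 to 17.4%. The 3 shares did not overlap between the groups, and Atp5g3 remained the main source in every library. For Atp5g1, 11.1% of its 50-base stretches also occur in other annotated transcripts, and how the authors assigned such reads is not stated.

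Among the accessory members of complex V, Atp5k, the e subunit of the dimer interface, stood at 30.9, 27.2 and 24.9 CPM in controls and 35.9, 39.98, 30.3 and 47.3 CPM in KO libraries. KO 3 lay just below control 1 (0.47, SE 0.15, adjusted p = 0.0300), and the call was lost in 6 alternatives. Atp5s, known as coupling factor B, stood at 10.7, 10.5 and 9.12 CPM and then at 7.53, 8.89, 7.01 and 7.61 CPM. It fell by 0.38 without overlap (SE 0.13, adjusted p = 0.0421), and the call was lost in 10 alternatives. For Atp5l (0.52, adjusted p = 0.101) 84.9% of 50-base stretches occur in other transcripts, so its value is uncertain. Over all members 46 shared at least 1 such stretch, 25 shared over 10%, and 27 had an exon that overlaps another annotated gene, which counting without strand would not separate.

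Cycs, cytochrome c, which carries electrons from complex III to complex IV and also triggers apoptosis when released, stood at 16.2, 16.4 and 16.01 CPM in controls and 18.6, 22.2, 17.55 and 18.6 CPM in KO libraries. All KO libraries lay above all controls, and the test was not passed (0.25, SE 0.10, adjusted p = 0.0824).

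Short transcripts lay higher than long ones. Across the 79 members, log2 fold change against the logarithm of the median protein-coding transcript length had a Pearson r of −0.35 and a Spearman rho of −0.48. Without Cox6b2 and Cox7a1, the members with the fewest reads, they were −0.44 and −0.45. These are correlations across genes read in the same 7 libraries, and genes are not independent replicates. Within complexes the Pearson r was −0.17 in complex I (36 genes), −0.76 in III (8), −0.47 in IV (13) and −0.49 in V (17).

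The same order held outside the set. Over 15495 tested genes with a length, r was −0.14 and rho −0.20. The 35 members under 700 bp had a median log2 fold change of 0.24, beside 0.34 for the 1226 tested genes of that length. The 28 members from 700 to 1500 bp had 0.15, beside 0.16, and the 16 members of 1500 bp or more had −0.04, beside −0.02. Of the 35 short members 28.6% rose and 0% fell, beside 25.8% and 6.93% of all short genes. From 700 to 1500 bp 17.9% of members rose and 0% fell, beside 25.3% and 14% of all genes of that length. At 1500 bp or more 12.5% rose and 12.5% fell, beside 22.1% and 26%. The members' median lay below that of all genes in each class, and neither the medians nor the shares called were tested against each other. No measure of RNA quality was at hand, and its part in this relation was not tested.

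**Figure D5:**
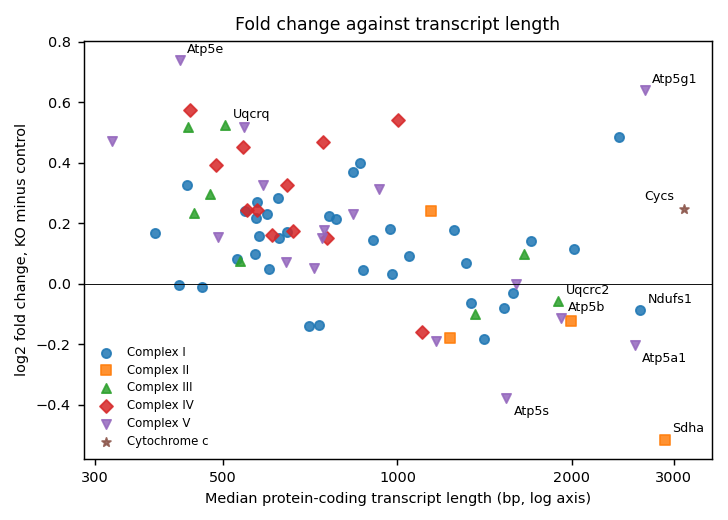
Log2 fold change of each member (KO minus control) against the median length of its protein-coding transcripts on a log axis, with complexes by colour and shape; Cox6b2, at 3.59, lies beyond the axis and is not drawn. Most members under 700 bp lie above 0 and the long Sdha and Atp5a1 below it on the TMM scale, while Atp5g1 and Cycs are long and lie above 0.

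The subunits encoded by mitochondrial DNA, partners of these members in complexes I, III, IV and V, were not called in the main test. Of the 19 alternatives that include these genes, mt-Nd6 was called higher in 4 and mt-Nd5 in 1. Of 13 such genes 7 could be tested, 0 passed edgeR's test (0 also in DESeq2 and limma-voom, and 0 at an unadjusted p under 0.05), and their median log2 fold change was 0.11. mt-Co1, the catalytic subunit of complex IV, stood at 12670, 12430 and 12330 CPM in controls and 15400, 13940, 9660 and 14890 CPM in KO libraries. KO 3 lay below all controls and the other 3 above them (0.11, SE 0.20, adjusted p = 0.677). mt-Cytb of complex III stood at 4221, 4553 and 4244 CPM and then at 5810, 4663, 3388 and 5435 CPM (0.15, adjusted p = 0.553). mt-Nd6 (0.30, adjusted p = 0.113) and mt-Nd5 (0.18, adjusted p = 0.36) of complex I had the largest positive values, and mt-Nd2 (−0.19, adjusted p = 0.415) and mt-Nd1 (−0.07, adjusted p = 0.786) were negative. mt-Nd4 stood at 1761 ± 104 CPM in controls (SD, n = 3) and 1821 ± 365 CPM in KO libraries (SD, n = 4). KO 3 was the lowest library in all 7 genes.

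The other 6 mitochondrially encoded genes (mt-Nd3, mt-Nd4l, mt-Co2, mt-Co3, mt-Atp6 and mt-Atp8) were at or near 0, at most 0.263 CPM in any library. For mt-Co2 100% of 50-base stretches occur in an annotated nuclear copy, for mt-Co3 99.9%, for mt-Atp6 99.5%, for mt-Nd4l 98.8% and for mt-Nd3 97.99%. mt-Atp8, at 0%, had no such copy but is the shortest of the 6. The table therefore gives no level for these genes. Shared stretches also cover 62.2% of mt-Nd4 and 51.1% of mt-Co1, and their values above count only what was assigned to them. In all, mitochondrially encoded genes took 2.36 to 2.45% of counts in controls and 3.52, 2.99, 2.10 and 3.53% in KO 1 to 4.

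Related genes were read from 11 lists. Of 131 entries that are not members 120 were tested, 26 rose (21.7%, beside 23% of all genes) and 14 fell (11.7%, beside 22.2%). Of the 3 subunits outside the naming rule, Usmg5, also called DAPIT, rose (0.35, adjusted p = 0.0209), while Ndufab1, the acyl carrier of complex I, stood at 17.4, 18.1 and 20.6 CPM and then at 23.7, 22.0, 18.9 and 23.9 CPM (0.24, adjusted p = 0.107) and Cyc1, the cytochrome c1 of complex III, at 83.6 ± 1.81 CPM (SD, n = 3) and 89.4 ± 6.997 CPM (SD, n = 4) (0.10, adjusted p = 0.371).

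Assembly factors moved in both directions. For complex I 4 of 16 rose, among them Ndufaf4 (0.42, adjusted p = 0.0143) and Dmac1 (0.42, adjusted p = 0.0226), and Tmem126b fell (−0.44, adjusted p = 0.0207). For complex II 1 of 4 rose, Sdhaf4, which protects the flavinated Sdha before it joins Sdhb (0.50, adjusted p = 0.0270). For complex III 1 of 6 rose and 1 fell. Uqcc2, a chaperone of cytochrome b, stood at 25.7, 24.0 and 21.1 CPM and then at 38.6, 38.1, 31.0 and 45.7 CPM (0.70, adjusted p = 0.00307), all KO libraries above all controls. Its partner Uqcc1 fell (−0.39, adjusted p = 0.0303).

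For complex IV 2 of 20 rose and 3 fell. Coa5, an assembly factor of the complex, stood at 66.7, 74.2 and 63.7 CPM in controls and 31.0, 39.8, 47.3 and 28.4 CPM in KO libraries. It fell by 0.90 on the log2 scale (SE 0.17, adjusted p = 0.00234), with no overlap. Surf1, needed for the haem centres, fell (−0.38, adjusted p = 0.0139), and Cmc2 rose (0.63, adjusted p = 0.0144). For complex V 1 of 3 fell: Atpaf1, which chaperones the beta subunit, stood at 15.5, 15.4 and 18.6 CPM and then at 10.9, 10.4, 12.2 and 10.8 CPM (−0.57, SE 0.11, adjusted p = 0.00362). Under library totals the Atpaf1 call was lost (adjusted p = 0.0576), as were those of Surf1, Uqcc1 and Tmem126b. Of 20 alternatives, Uqcc1 lost its call in 9, Tmem126b in 7 and Surf1 in 3. Among the rises, Dmac1 lost its call in 7, Sdhaf4 in 6, Cmc2 in 4 and Ndufaf4 in 3. Uqcc2 and Coa5 kept theirs in all 20.

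Among 17 regulators of mitochondrial genes 3 rose and 3 fell. Pprc1, a coactivator of the PGC-1 family induced by serum, stood at 62.1, 68.5 and 76.6 CPM in controls and 158, 138, 96.4 and 123 CPM in KO libraries. It rose without overlap (0.90, SE 0.16, adjusted p = 0.00199). KO 1 and KO 2, its highest libraries, were also the highest in the dissociation stress genes, whose part was not tested. Esrra, the nuclear receptor ERR alpha, fell (−0.40, adjusted p = 0.0119), and Twnk, the mitochondrial DNA helicase, rose (0.46, adjusted p = 0.00981). Esrra lost its call in 3 of 20 alternatives, library totals among them, and Twnk in 2. Gabpa, the DNA-binding subunit of GABP, stood at 50.5, 58.6 and 60 CPM and then at 37.9, 42.6, 52.3 and 35.7 CPM. It fell (−0.42, adjusted p = 0.0304), with KO 3 within the control range. Nrf1 (−0.07, adjusted p = 0.479) and Tfam (0.09, adjusted p = 0.52) did not pass, and Ppargc1a was at 0.0326 to 0.291 CPM and was not tested.

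In the remaining lists, of 14 citric acid cycle genes 4 rose and 2 fell, with rises of Idh2 (0.45, adjusted p = 0.00194), Fh1 (0.37, adjusted p = 0.00365) and Dlst (0.30, adjusted p = 0.0157). Of 17 import genes 5 rose and 2 fell. Timm10 (0.76, adjusted p = 0.00315), Timm13 (0.70, adjusted p = 0.00160), chaperones of the intermembrane space, and Timm50 (0.40, adjusted p = 0.00447) of the inner membrane gate had the smallest p. Of 13 membrane and chaperone genes 5 rose and 1 fell. Hspe1 and Hspd1, the chaperonin pair of the matrix that share a promoter, went from 21.5 ± 1.59 to 38.9 ± 6.35 CPM (SD; 0.86, adjusted p = 0.00102) and from 49.7 ± 2.46 to 71.6 ± 9.57 CPM (SD; 0.53, adjusted p = 0.00465), over 3 control and 4 KO libraries. Phb2, a prohibitin of the inner membrane, also rose (0.33, adjusted p = 0.0162).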

How the data were processed

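The authors deposited 1 table of raw counts, with a row per Ensembl gene and a column for each of 7 libraries. The tools named in the submitters' processing notes are STAR 2.7.6a and FastQC 0.11.5, and the build is GRCm38. The counting tool, annotation and strand setting: not given in the sources used here. Per the labels' protocols an unstranded or a stranded TruSeq kit was used, without saying which for which library, so overlapping and antisense genes cannot be told apart with certainty. Symbols matched 52403 IDs and not 233.

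Counts were filtered with filterByExpr (minimum 10, total 15), scaled by TMM and tested with edgeR 4.0.16 (quasi-likelihood F-test, no covariate, Benjamini-Hochberg over 15512 genes, threshold 0.05) in R 4.3.3. "Rose" and "fell" mean an adjusted p under 0.05, KO against control. A standard error is the size of the log2 fold change over the root of its F statistic. Libraries of a group differed by more than counting allows (13.5 to 106 for chi-square over its degrees of freedom). A count of 3, taken as the limit for a gene at 0, is 0.0873 to 0.132 CPM, and such limits cover counting error only. Coordinates, gene types and lengths (the median over a gene's basic protein-coding transcripts) come from GENCODE mouse release 21 on GRCm38. Upstream sequences come from RefSeq. The test was checked on simulated data.

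The members, the 11 pathway lists and the 12 marker lists were chosen with earlier results of these data known. Full values are given for up to 3 rises and 3 falls per complex, Cycs, the Sdh genes, paralog sets, the most abundant member of each complex, up to 3 called members per pathway list, and the mitochondrially encoded genes. Fam71e2, Kmt5c, Nrf1, Gabpa, Tfam and Ppargc1a, and single members such as Ndufb8 and Atp5l, were named outside this rule after their values were seen. Ratios and the length relation were also chosen then. Alternatives were DESeq2 1.42.0 and its size factors, upper-quartile factors, library totals, TMM without mitochondrial and ribosomal protein genes, 2 other filters, voom of limma 3.58.1, the lane as a term, lane 5 alone, a replicate block, removal of other cells' markers, each library left out, and KO 1 and KO 4 left out together. The values of 1 complex I member are not reported here, while counts and medians include it.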

Additional observations from a re-analysis of the deposited data

Results flagged for a closer look

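The KO libraries were examined in 66 groups of values: 60 named genes and the median levels of all members and of each complex. Each group was searched for 1 library standing far from the other 3 relative to the group's range. Chance alone gives this in about 1 in 20 groups. It was so for 2 of the 66 groups, both of them genes. Sdhaf4, the complex II assembly factor, stood at 10.56 CPM in KO 4 and at 7.83 to 7.98 CPM in KO 1 to 3. mt-Nd1 stood at 2223 CPM in KO 3, the KO library of lane 4, and at 3322 to 3476 CPM in the other KO libraries. Without KO 3 the log2 fold change of mt-Nd1 was 0.05 in place of −0.07, and it was not called either way. Without KO 4 that of Sdhaf4 was 0.38 in place of 0.50, and its call was lost (adjusted p = 0.0697).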

How the results depend on the processing

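Scaling moved the counts most. Under library totals 57 members rose (complex I 25, III 6, IV 11, V 13), 0 fell and the median was 0.43; under upper-quartile factors 33 rose (I 12, IV 10), 1 fell and the median was 0.29. Complex II had 0 rises with DESeq2, with its size factors, with limma-voom, with no low-count filter and with other cells' markers removed; falls were 1 with no low-count filter. With the lane as a term 4 complex I members rose. Lane 5 alone gave 9 rises (I 0, II 0, V 3) and 5 falls. Without KO 1 and KO 4 together there were 7 rises (I 1, II 0, III 0, IV 3, V 3) and 1 fall. Leaving out 1 library gave 4 to 17 rises, 1 to 2 falls, 0 to 5 rises in complex I, 0 to 1 in II, 0 to 3 in III, 2 to 6 in IV, 2 to 6 in V and a median of 0.09 to 0.24. Replicate numbers are shared by the groups, and same-numbered libraries also share a lane and have neighbouring sample numbers in their labels. The deviations of same-numbered libraries correlated at −0.0133, 0.162 and 0.0674 for numbers 1 to 3. The value of 0.162 was the highest of any control with any KO library, while control 1 correlated best with KO 4 (0.0505) and control 3 with KO 1 (0.0781). With so few libraries per group these correlations cannot decide whether the libraries were paired. The replicate block gave 8 rises (I 0, II 0, V 2) and 1 fall, beside 16.4% and 16.9% of all genes. Direction changed in 27 values. The complex II median was 0.11 under library totals. Under library totals Ndufa4 was 0.26 (called), Atp5b 0.15, Sdhc 0.14, Sdhd 0.081, Cox7a2l 0.10, mt-Nd1 0.21 and mt-Nd2 0.086. Under upper-quartile factors Ndufa4 was 0.12, Atp5b 0.0079, Sdhc 0.0031 and mt-Nd1 0.065. Without KO 1 and KO 4 Atp5b was 0.053, Cox7a1 −0.051, Cox7a2l 0.16, mt-Nd4 −0.19, mt-Cytb −0.11 and mt-Co1 −0.082. Ndufa4 was 0.0057 with no low-count filter, and −0.092 to 0.027 with 1 library left out (above 0 without control 1 or 2); mt-Nd1 was −0.15 to 0.052 with 1 left out (above 0 without KO 3). mt-Nd4 was −0.032 with the replicate block, −0.052 to 0.15 with 1 library left out (below 0 without control 2, KO 1 or KO 4); Atp5g3 was −0.014 in lane 5. None of these was called before the change of setting, and all but Ndufa4 under library totals were uncalled after it. The causes were not tested. Of 39 named genes past the threshold 14 kept the call in all 20 alternatives. Depth limits Cox7a1, with 6 to 26 counts a library; 6 mitochondrial genes have no usable level.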
